A study of Canis lupus familiaris with 6 samples.

Results

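CA2, CA3, CA4, CA9, CA12 and CA13 encode carbonic anhydrases, and SLC4A7, SLC16A1 and SLC16A3 encode carriers of bicarbonate or lactate. These 9 genes, of 15115 named on the array, were read on 17 of its 42924 non-control probe sets, by taking every probe set whose only gene symbol in the probe annotation was one of them. The RNA came from 6 primary lines of canine osteosarcoma, a malignant tumour of bone, and each line was hybridized to 1 Affymetrix array. UWKOS1, UWKOS3 and UWKOS7 formed tumours when transplanted into mice (tumorigenic, n = 3), and UWKOS2, UWKOS6 and UWKOS8 did not (non-tumorigenic, n = 3). All 6 were grown alike in medium with 10% serum and harvested at about 70 to 80% confluency, and the arrays hold RNA of these cultures, not of transplants. There was no normal bone or other control. The genotype and age of the dogs are not given in the labels, and each line was arrayed once, so every error below is the spread between lines. The genes were chosen by values of these same arrays, with the difference of CA2 between the groups already known, so the group differences of these 9 genes are given as a description: no p-value is printed for them, and the number of their probe sets past the threshold only stands beside the background.

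Carbonic anhydrases are zinc enzymes that interconvert carbon dioxide and water with bicarbonate and a proton. Cells that burn much glucose make lactate and protons, which they export through monocarboxylate transporters, while sodium-bicarbonate cotransporters bring in base and membrane-bound carbonic anhydrases work on the outer cell surface. In bone, CA2 is best known from osteoclasts, where it supplies the protons that a vacuolar proton pump secretes to dissolve mineral, and its loss in people causes osteopetrosis. CA9 and SLC16A3 are widely used markers of the response to low oxygen, because the hypoxia-inducible factor HIF1 drives both.

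Values are the deposited log2 values, on which a step of 1 is a doubling. Differences are tumorigenic minus non-tumorigenic means. A probe set was tested when its mean over the 6 arrays reached 6.07, which is the array-wide median without control probe sets, and values under it are not known to lie above background. Probe sets of 1 gene are lettered a, b and c from the brightest to the dimmest. Levels of different probe sets are not compared with each other. 10 of the 17 probe sets, from 7 genes, reached that value, and both CA12 and CA13 lay below it. With limma and Benjamini-Hochberg adjustment over all 21462 tested probe sets at a threshold of 0.05, 1 of the 10 passed, the brightest one of CA2, beside 12.0% of all tested probe sets. Nothing is read from that count, because CA2 was chosen for this difference. The median difference was 1.09 over the 10 tested probe sets and 0.84 over all 17, beside 0.0288 over all tested probe sets. The tumorigenic lines all lay above the non-tumorigenic ones on 6 of the 17 (13.9% of all non-control probe sets), and all below on 1 (15.3%). Among the 10 tested probe sets they lay all above on 4 (21.3% of all tested probe sets) and all below on 1 (16.9%).

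2 of the arrays stood apart in RNA quality. On 4 pairs of control probe sets for the 3' and 5' ends of actin and GAPDH transcripts, the mean 3' minus 5' difference was 0.53 in UWKOS1, 0.59 in UWKOS3, 0.81 in UWKOS7 and 0.62 in UWKOS2, but 1.55 in UWKOS6 and 1.48 in UWKOS8. The groups differed by -0.57 (two-sided exact permutation p = 0.2, where 3 against 3 lines cannot go below 0.1). Array medians ran from 6.03 to 6.05. The bone collagen genes COL1A1 and COL1A2 were bright in every line (12.28 to 13.51 and 13.17 to 14.60), while 4 other of the 9 measured osteoblast markers, namely ALPL, IBSP, PHEX and DMP1, lay below 6.07 in every line. SPP1, also on that list, read 9.76 in UWKOS1 and 2.79 to 3.30 in the other lines. RUNX2 (5.84 to 6.52) and BGLAP (5.32 to 6.64) lay on both sides of 6.07.

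**Figure D1:**
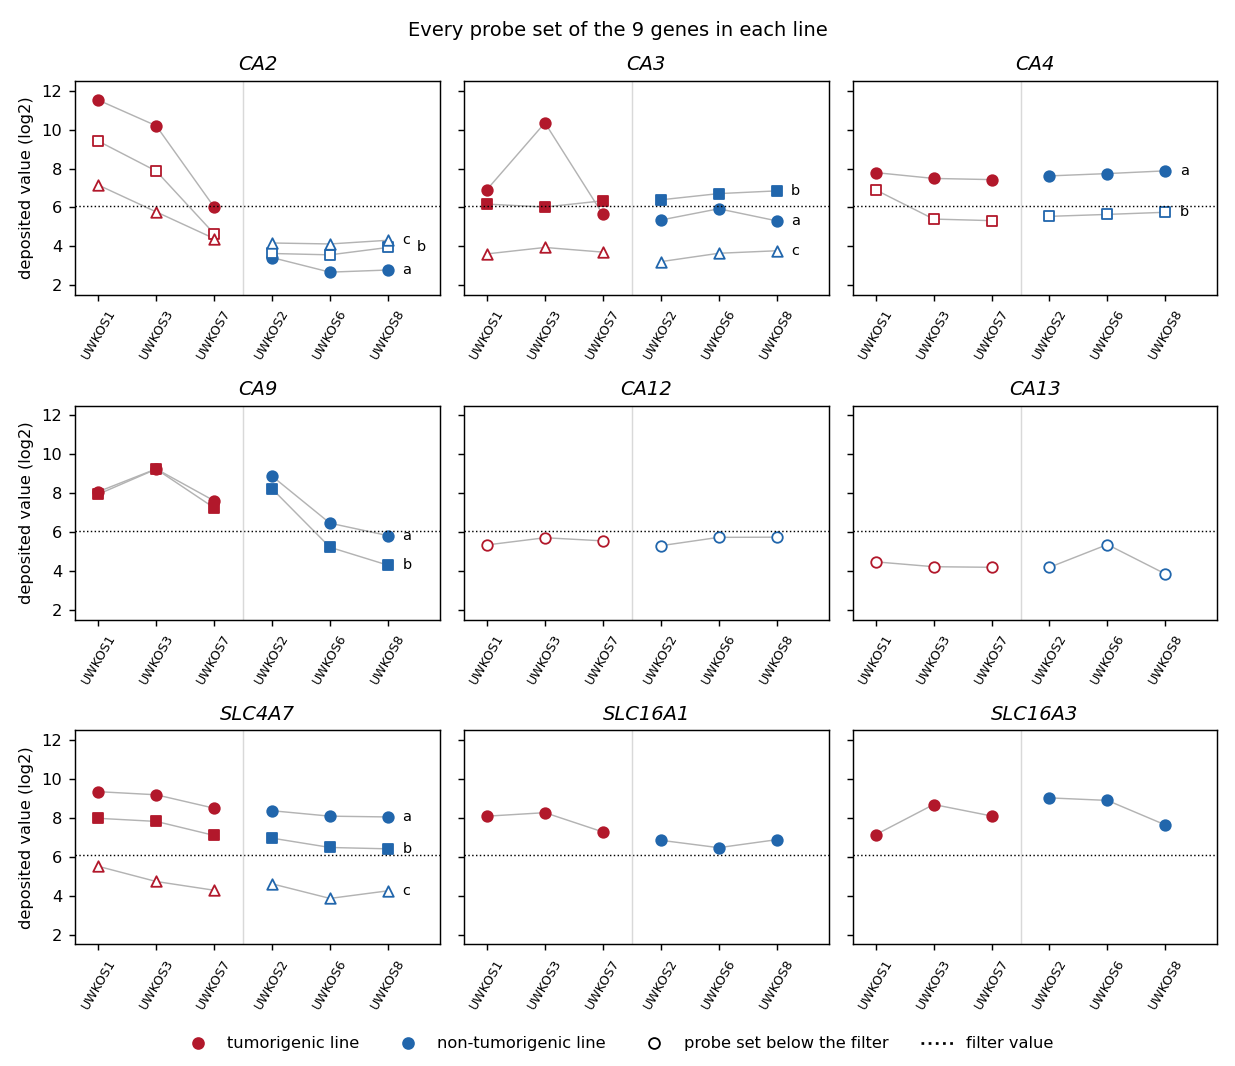
Each panel shows 1 gene, with the deposited log2 value on the vertical axis and the 6 lines on the horizontal axis (red tumorigenic, blue non-tumorigenic); letters mark probe sets from brightest to dimmest, open symbols are probe sets below the filter, grey lines only join points of 1 probe set, and the dotted line is the filter value of 6.07. CA2 falls from UWKOS1 to UWKOS3 to UWKOS7 within the tumorigenic lines on all 3 of its probe sets, and CA9 is low in UWKOS6 and UWKOS8 but not in UWKOS2.

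CA2, the fast cytosolic carbonic anhydrase, was the gene with the widest spread. Its probe set a read 11.52 in UWKOS1, 10.20 in UWKOS3 and 6.02 in UWKOS7, against 3.42 in UWKOS2, 2.67 in UWKOS6 and 2.78 in UWKOS8. The groups did not overlap, with a gap of 2.59 between the lowest tumorigenic and the highest non-tumorigenic line. The means were 9.25 ± 2.87 (SD, n = 3) and 2.96 ± 0.41 (SD, n = 3), a difference of 6.29 with an SE of 1.32. The tumorigenic lines were far from uniform: UWKOS1 stood 8.56 above the non-tumorigenic mean, UWKOS3 7.24 and UWKOS7 3.06. In these bulk cultures fewer cells with CA2 RNA and less CA2 RNA per cell cannot be told apart. All non-tumorigenic values and that of UWKOS7 lay below the filter value, so the size of the difference is uncertain.

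The other probe sets of CA2 gave the same order among the tumorigenic lines at smaller sizes. Probe set b read 9.41 in UWKOS1, 7.87 in UWKOS3 and 4.65 in UWKOS7, against 3.63 in UWKOS2, 3.56 in UWKOS6 and 3.94 in UWKOS8, a difference of 3.61 with an SE of 1.14. Probe set c read 7.15, 5.77 and 4.40 in UWKOS1, UWKOS3 and UWKOS7, against 4.17, 4.12 and 4.31 in UWKOS2, UWKOS6 and UWKOS8, a difference of 1.58 with an SE of 0.65. On this dimmest probe set UWKOS7 stood only 0.09 above the highest non-tumorigenic line, less than its spread among the non-tumorigenic lines (SD 0.10). Both had means below the filter, and the suffix of their names on the array marks probes that match more than 1 transcript. The same suffix is on CA3 a and b, on CA4 b and on every probe set of CA9, CA12, CA13, SLC4A7 and SLC16A1. UWKOS1 was thus the highest line and UWKOS3 the next on all 3 probe sets of CA2, but the 5.77 of UWKOS3 on probe set c lay below 6.07. UWKOS7 was the lowest tumorigenic line on each, and its values all lay below 6.07, where their distance from the non-tumorigenic lines is uncertain.

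The mean of the brightest CA2 probe set, 6.10, lay 0.03 above the filter value. It reached that value through UWKOS1 and UWKOS3, so nothing rests on its being counted as past the threshold. Without the filter the count was 0 of the 17 probe sets with limma (5.05% of all non-control probe sets passed), and 6 of the 17 had an unadjusted p under 0.05. The array-wide share at an unadjusted p is not given here or below, so nothing is read from such counts. With a line left out, the difference of CA2 was 5.15 without UWKOS1, 5.81 without UWKOS3, 7.90 without UWKOS7, 6.52 without UWKOS2, 6.14 without UWKOS6 and 6.20 without UWKOS8. Without both UWKOS6 and UWKOS8, the arrays with the high transcript-end values, it was 5.82 against UWKOS2 alone. The direction of this probe set was the same in all 16 alternatives that tested it, with differences from 5.04 to 7.90.

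Markers of cells known for CA2 were set beside it. Of 9 measured osteoclast markers 5 were at or above the filter, and their summed level, in linear array units, ran from 1110 to 4165 in the tumorigenic lines and from 9118 to 11631 in the non-tumorigenic ones. CTSK, the collagen-degrading protease cathepsin K, made up most of this sum in the non-tumorigenic lines. It read 8.06 to 11.77 in the tumorigenic and 13.05 to 13.39 in the non-tumorigenic lines. The other tested osteoclast markers went both ways, with differences of -0.18 for ACP5, -0.01 for CLCN7, 0.19 for OSTM1 and 0.42 for ITGB3. The osteoclast receptors TNFRSF11A and CALCR and the factor NFATC1 lay below 6.07 in every line. By summed level, epithelial markers ran the other way from CTSK. Of 5 measured 1 was at or above the filter, KRT7, which differed by 0.81 (SE 0.19, limma adjusted p = 0.0461, or 0.0541 without the filter), and their summed level ran from 213 to 580 in the tumorigenic lines and from 129 to 166 in the others. The keratin KRT8 read 6.49 in UWKOS1 and 6.64 in UWKOS3 and no more than 3.04 in the other lines, EPCAM read 7.65 in UWKOS1 and lay below 6.07 elsewhere, and the cadherin CDH1 lay below 6.07 in every line. The part of these markers in the CA2 values was not tested.

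The 5 probe sets whose profile over the 6 lines lay nearest to that of CA2, each centred on its own mean, belonged to 3 genes among 29251 compared probe sets with a single symbol. TSPAN8, a tetraspanin of the cell surface, was the nearest, at a root mean square distance of 0.43, with a further probe set at 0.84. It read 12.64 in UWKOS1, 11.81 in UWKOS3 and 6.77 in UWKOS7, against 4.56 to 4.88 in the non-tumorigenic lines. CXADR, the cell adhesion protein that coxsackieviruses and adenoviruses bind, followed at 0.75 and 0.81, with 12.16, 12.18 and 6.47 in the tumorigenic lines on its nearer probe set and 4.87 to 5.47 in the others. LYSMD2 came last of the 5, at 0.87, with 10.04, 10.01 and 7.32 against 3.19 to 3.62. Each of these profiles shared the high values of UWKOS1 and UWKOS3. For scale, the CA2 profile itself had a root mean square of 3.56 about its mean, and 4.57% of the compared probe sets exceeded 1. With 6 arrays that share 1 set of groups, this likeness is a description.

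**Figure D2:**
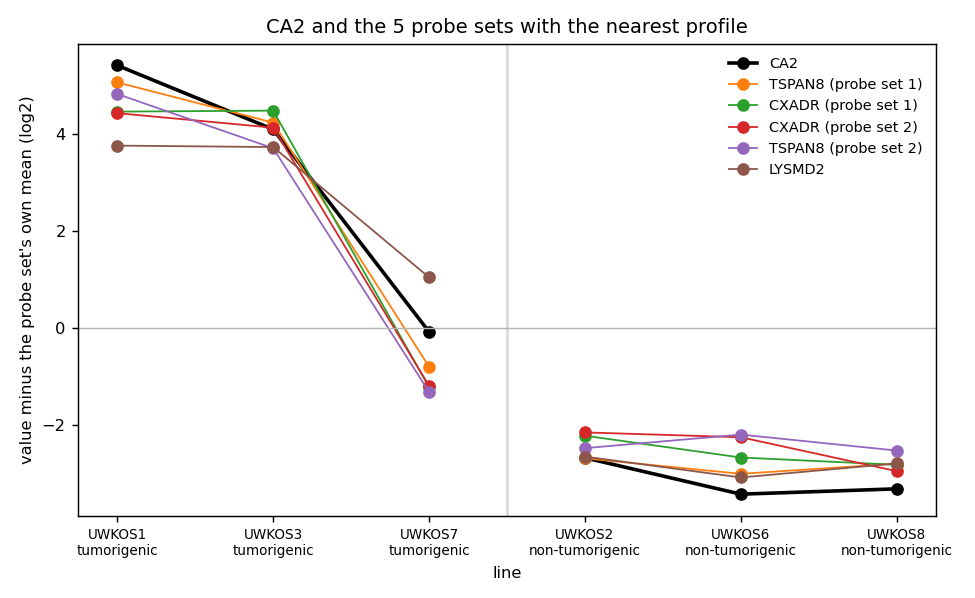
The deposited log2 value of each probe set minus its own mean over the 6 lines (vertical axis) is drawn for CA2 (black) and the 5 probe sets with the nearest profile (colours), with the tumorigenic lines at the left. All 6 profiles are high in UWKOS1 and UWKOS3, lower in UWKOS7 and lowest in the non-tumorigenic lines, and LYSMD2 is the highest of them in UWKOS7.

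CA3 and CA13, the other cytosolic members, neighbour CA2 in the genome. In the gene order of the RefSeq table for assembly UU_Cfam_GSD_1.0, the order is CA13, CA1, CA3 and CA2, flanked by LRRCC1, E2F5 and RBIS on 1 side and by PSKH2, ATP6V0D2 and SLC7A13 on the other. CA3, which has low enzyme activity and is abundant in muscle and fat, was high in a single line. Its probe set a read 6.92 in UWKOS1, 10.35 in UWKOS3 and 5.64 in UWKOS7, against 5.35 in UWKOS2, 5.93 in UWKOS6 and 5.31 in UWKOS8. UWKOS7 lay within the non-tumorigenic range, so the groups overlapped, and the difference of 2.10 (SE 1.12) fell to 0.75 without UWKOS3. The other probe sets of CA3 did not follow: probe set b read 6.17, 6.02 and 6.34 in UWKOS1, UWKOS3 and UWKOS7 against 6.39, 6.71 and 6.85 in UWKOS2, UWKOS6 and UWKOS8, a difference of -0.47. Probe set c was dim, at 3.21 to 3.94, with overlapping groups. The high value of UWKOS3 therefore rests on 1 of the 3 probe sets.

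Markers of the tissues rich in CA3 were mostly dim. Of 6 measured skeletal muscle markers 2 were at or above the filter, with summed levels of 227 to 491 in the tumorigenic lines (227 in UWKOS3) and 1484 to 1548 in the non-tumorigenic ones, and MYOD1, MYOG, MYH2 and TNNC2 lay below 6.07 in every line. ACTA1, the actin of skeletal muscle, read 7.07, 4.70 and 8.25 in UWKOS1, UWKOS3 and UWKOS7 and 10.35 to 10.40 in the others, a difference of -3.70 (SE 0.83, limma adjusted p = 0.0392, or 0.0651 without the filter). Of 7 measured adipocyte markers 2 were at or above the filter, with summed levels of 250 to 1768 in the tumorigenic lines (250 in UWKOS3) and 217 to 276 in the others, and ADIPOQ, LEP, CIDEC and LPL lay below 6.07 in every line. PPARG, the master factor of fat cells, read 10.39 in UWKOS1 and 4.63 to 5.78 in the other lines. FABP4, a fatty acid carrier, differed by 2.06 (SE 0.50, limma adjusted p = 0.0465, or 0.0749 without the filter), with all 3 non-tumorigenic values below 6.07. UWKOS3, the line with the high CA3 value, had the lowest summed level of both lists among the tumorigenic lines. In the muscle list this place rests on ACTA1 alone, which also made up most of the sum in the non-tumorigenic lines. The part of these markers in the CA3 values was not tested.

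CA13, a cytosolic form found in many tissues, gave 1 dim probe set that read 4.47 in UWKOS1, 4.22 in UWKOS3 and 4.19 in UWKOS7, against 4.19 in UWKOS2, 5.36 in UWKOS6 and 3.85 in UWKOS8. Its groups overlapped, and its difference was -0.18 with an SE of 0.39. CA1, the carbonic anhydrase of red cells and no member of the 9, was highest in UWKOS1 on all 3 of its probe sets, at 7.28, 6.28 and 4.91. On its brightest probe set the other 5 lines read 5.09 to 5.41, and all 3 means lay below the filter. The erythroid markers ALAS2, SLC4A1 and KLF1 lay below 6.07 in every line, with summed levels of the 4 measured erythroid markers of 183 to 192 in the tumorigenic and 182 to 199 in the non-tumorigenic lines.

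Among the genes beside the cluster 3 were tested and 0 passed with limma; 1 probe set of RBIS had an unadjusted p under 0.05. LRRCC1 differed by 0.06 and E2F5 by 0.02 on their brightest probe sets, and RBIS by 0.52 (limma adjusted p = 0.857, 0.972 and 0.159), or by 0.91 on a further probe set (limma adjusted p = 0.0675). PSKH2 was dim in every line, at 3.27 to 3.59. ATP6V0D2, an osteoclast subunit of the vacuolar proton pump, read 4.40 to 4.44 in the tumorigenic lines on its brightest probe set. In UWKOS2, UWKOS6 and UWKOS8 it read 4.50, 5.24 and 5.92. On its dimmer probe sets the groups overlapped. All its values lay below 6.07, so no high line is read from them. SLC7A13 had no probe set with a single symbol here and is not reported. Among the carbonic anhydrases of this stretch, the highest lines were UWKOS1 and UWKOS3 for CA2, UWKOS3 on the brightest CA3 probe set and UWKOS1 for CA1. CA13 lay below the filter value in every line. LRRCC1, E2F5 and RBIS lay above it in every line on their brightest probe sets.

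**Figure D3:**
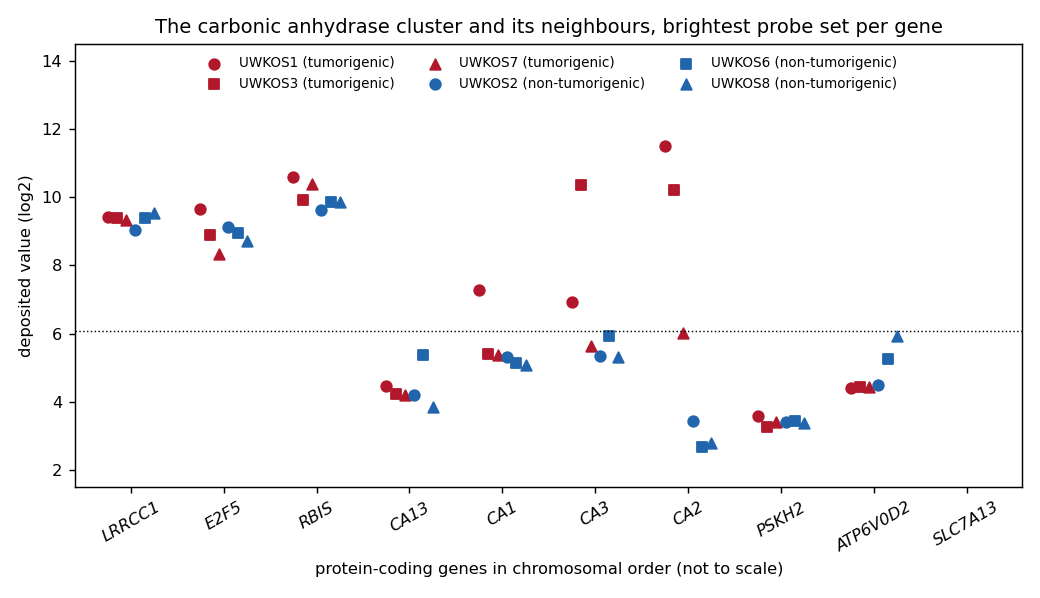
Genes stand in chromosomal order and not to scale on the horizontal axis, with the deposited log2 value of the brightest probe set in each of the 6 lines on the vertical axis (red tumorigenic, blue non-tumorigenic; the dotted line is the filter value of 6.07). UWKOS1 and UWKOS3 stand above 10 for CA2 and UWKOS3 does so for CA3, while E2F5 and LRRCC1 lie between 8 and 10 in every line; SLC7A13 has no value.

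CA9, CA12 and CA4 encode membrane-bound enzymes whose active site faces the outside of the cell. CA9 split the non-tumorigenic lines rather than the groups. On probe set a it read 8.08 in UWKOS1, 9.25 in UWKOS3 and 7.61 in UWKOS7, against 8.88 in UWKOS2, 6.46 in UWKOS6 and 5.82 in UWKOS8. On probe set b it read 7.95, 9.24 and 7.25 in UWKOS1, UWKOS3 and UWKOS7, against 8.23, 5.22 and 4.30 in UWKOS2, UWKOS6 and UWKOS8. Both probe sets put the lines in the same order, with UWKOS3 first, the non-tumorigenic UWKOS2 second, and UWKOS6 and UWKOS8 last.

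The differences of CA9 were 1.26 (SE 0.84) and 2.23 (SE 1.05), with overlapping groups and a wider range among the non-tumorigenic lines (3.06 and 3.93) than among the tumorigenic ones (1.64 and 1.99). They depended on which lines were compared. Without UWKOS6 and UWKOS8 the differences were -0.57 and -0.08 against UWKOS2 alone, and without UWKOS2 they were 2.17 and 3.38. UWKOS6 and UWKOS8 are also the arrays with the high transcript-end values, and with the mean transcript-end value as a covariate the differences were -0.47 and 0.04. The part of RNA quality in the CA9 values was not tested further. On 6 of the 17 probe sets, 2 of CA9, 3 of SLC4A7 and 1 of CA2, both of these lines were lower than the other 4. This order held for 11.9% of all non-control probe sets and 18.3% of all tested ones.

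CA4, which is anchored in the membrane by a lipid, differed little on its brighter probe set. Probe set a read 7.79, 7.49 and 7.43 in UWKOS1, UWKOS3 and UWKOS7, against 7.62, 7.74 and 7.88 in UWKOS2, UWKOS6 and UWKOS8, a difference of -0.17 with a 95% interval from -0.59 to 0.24. The dimmer probe set b read 6.90 in UWKOS1 and 5.32 to 5.75 in the other lines, a difference of 0.23 with an interval from -0.81 to 1.27. CA12, a relative of CA9 found in many epithelia, was below the filter in every line. Its only probe set read 5.34, 5.71 and 5.55 in UWKOS1, UWKOS3 and UWKOS7, against 5.30, 5.73 and 5.74 in UWKOS2, UWKOS6 and UWKOS8, a difference of -0.06 (SE 0.17). The groups of both genes overlapped. Endothelial cells, which are rich in CA4 in some tissues, had summed marker levels of 502 to 682 in the tumorigenic and 455 to 466 in the non-tumorigenic lines, with 3 of 6 measured markers at or above the filter and PECAM1 and TEK below it in every line. Macrophage and leukocyte markers gave 344 to 483 and 449 to 505, with 3 of 8 at or above the filter and CSF1R and PTPRC, among others, below it in every line.

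SLC4A7 encodes an electroneutral sodium-bicarbonate cotransporter that loads cells with base. Its probe set a read 9.35 in UWKOS1, 9.19 in UWKOS3 and 8.50 in UWKOS7, against 8.37 in UWKOS2, 8.09 in UWKOS6 and 8.05 in UWKOS8. Probe set b read 7.98, 7.82 and 7.10 in UWKOS1, UWKOS3 and UWKOS7, against 6.96, 6.48 and 6.41 in UWKOS2, UWKOS6 and UWKOS8. On both the groups did not overlap, but only by 0.13 and 0.14, because UWKOS7 and UWKOS2 were close.

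The differences were 0.84 (SE 0.26) and 1.02 (SE 0.29), or 1.79-fold and 2.03-fold. These profiles were nearly parallel, at a root mean square distance of 0.11, where probe sets a and b spanned 1.29 and 1.57 over the 6 lines. The dim probe set c read 5.51, 4.73 and 4.28 in the tumorigenic lines and 4.61, 3.86 and 4.25 in UWKOS2, UWKOS6 and UWKOS8, a difference of 0.60 (SE 0.35) with overlapping groups. Without UWKOS7 the differences of a and b were 1.10 and 1.28, and without UWKOS6 and UWKOS8 they were 0.64 and 0.68.

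SLC16A1 and SLC16A3 encode the monocarboxylate transporters MCT1 and MCT4, which carry lactate together with a proton; MCT4 is the export form of strongly glycolytic cells. SLC16A1, on its only probe set, read 8.09 in UWKOS1, 8.27 in UWKOS3 and 7.28 in UWKOS7, against 6.85 in UWKOS2, 6.47 in UWKOS6 and 6.88 in UWKOS8. Its groups did not overlap, with a gap of 0.41. The difference was 1.15 (SE 0.30), or 2.22-fold. It was 1.45 without UWKOS7, 1.03 without UWKOS6 and UWKOS8, and 0.89 to 1.45 over 16 alternatives.

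SLC16A3 had no split by tumorigenicity. Its only probe set read 7.14 in UWKOS1, 8.69 in UWKOS3 and 8.10 in UWKOS7, against 9.03 in UWKOS2, 8.90 in UWKOS6 and 7.64 in UWKOS8. The groups overlapped, UWKOS1 was the lowest line and UWKOS2 the highest. The difference was -0.55 with a 95% interval from -1.79 to 0.69. The lines with the highest SLC16A1 values were UWKOS3 and UWKOS1, and those with the highest SLC16A3 values UWKOS2 and UWKOS6. SLC16A3 and CA9, both targets of HIF1, put the lines in orders that differed mainly in UWKOS6 and UWKOS1. From high to low, SLC16A3 ran UWKOS2, UWKOS6, UWKOS3, UWKOS7, UWKOS8 and UWKOS1. Both CA9 probe sets ran UWKOS3, UWKOS2, UWKOS1, UWKOS7, UWKOS6 and UWKOS8. For both genes UWKOS2 and UWKOS3 lay above UWKOS7, and UWKOS7 above UWKOS8. A shared response of these genes to low oxygen was not tested.

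UWKOS1 and UWKOS3 held the highest pair of values on 8 of the 17 probe sets, beside 12.6% of all non-control probe sets and 18.3% of all tested ones. All 3 probe sets of CA2 and all 3 of SLC4A7 were among these 8, with SLC16A1 and the brightest of CA3, so 4 of the 9 genes account for the count.

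**Figure D4:**
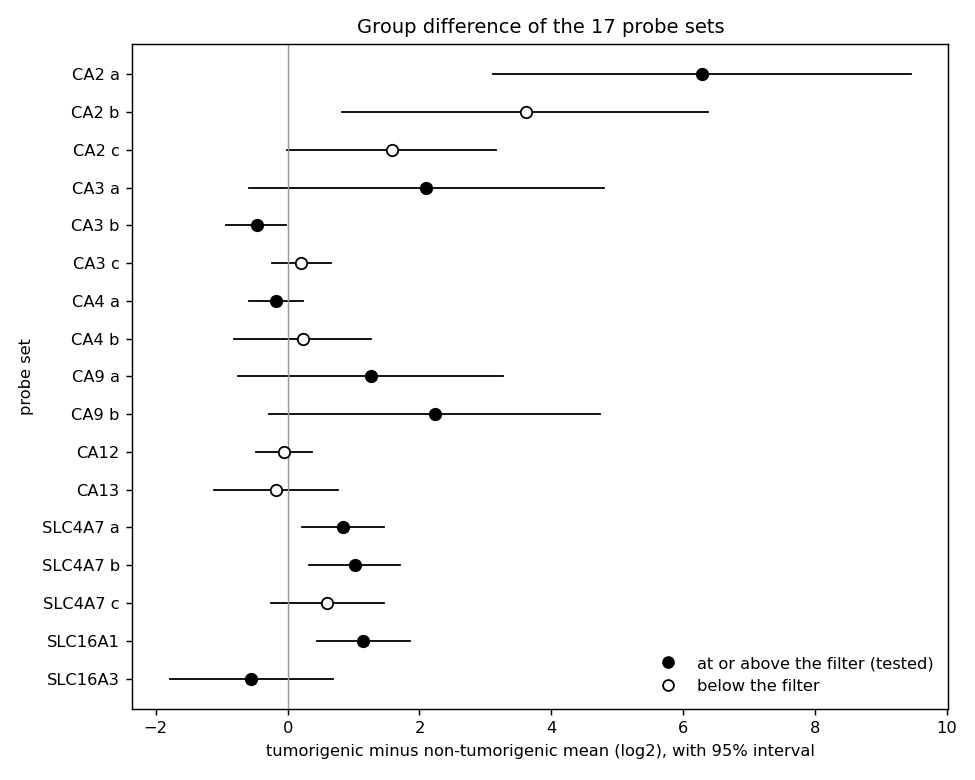
Points give the difference of the tumorigenic and non-tumorigenic means on the log2 scale for the 17 probe sets and bars the 95% interval from limma (filled, tested; open, below the filter, from the fit without it); letters run from the brightest to the dimmest probe set of a gene. The brightest CA2 probe set lies at 6.29 with an interval from 3.12 to 9.46. The intervals of all probe sets of CA4, CA9, CA12, CA13 and SLC16A3 include 0. So do those of CA2 c, CA3 a, CA3 c and SLC4A7 c.

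Other genes of pH regulation were counted on textbook lists: further carbonic anhydrases, sodium-proton exchangers, bicarbonate and monocarboxylate transporters, the vacuolar proton pump, proton sensors and the hypoxia-inducible factor with its regulators. Of 106 genes 98 were measured and 55 had their brightest probe set at or above the filter. Of these 1 rose, 2 fell and 52 did not pass with limma, with a median difference of -0.08. Over all 9145 tested genes 11.8% passed, 7.30% higher and 4.52% lower, with a median of 0.0333. An unadjusted p under 0.05 was found for 12 of the 55. With single lines left out, the count of 3 fell to 0 without UWKOS3, UWKOS6 or UWKOS8. In those fits 3.01%, 0.242% and 2.04% of all tested probe sets passed, and 5.32% without UWKOS1. Without UWKOS1 the count was 1, a gene outside these 3, CA11, and all 3 were lost.

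The genes that fell belong to the vacuolar proton pump, which acidifies lysosomes and, in osteoclasts, the bone surface. TCIRG1, the osteoclast form of its membrane subunit a, read 9.37 in UWKOS1, 9.62 in UWKOS3 and 9.15 in UWKOS7, against 10.13 in UWKOS2, 10.39 in UWKOS6 and 10.55 in UWKOS8. The groups did not overlap, and it fell by 0.98 (SE 0.20, limma adjusted p = 0.0325). Its dimmer probe set fell by 0.95 (limma adjusted p = 0.0251). ATP6V1H, a regulatory subunit, read 10.12 to 10.44 in the tumorigenic and 10.93 to 11.38 in the non-tumorigenic lines and fell by 0.79 (SE 0.19, limma adjusted p = 0.0480). A dimmer probe set of it stood at -0.16, short of the threshold (limma adjusted p = 0.772). Of 17 tested pump genes 11 were lower on average and the median was -0.27, or -0.10 after centring each array on its spiked-in hybridization controls, where the median of all tested probe sets moved to 0.2. Without UWKOS6 and UWKOS8 the pump median was -0.45, with 16 of 17 lower, beside a median of 0.0172 over all tested probe sets. That comparison is against UWKOS2 alone, so the 17 genes share 1 non-tumorigenic array and are no replicates. When a single line was left out, TCIRG1 passed without UWKOS2 or UWKOS7 only and ATP6V1H in no case, and the latter was also lost without the filter (limma adjusted p = 0.0564). Over their 17 alternatives the limma adjusted p ran from 0.0234 to 0.463 and from 0.0359 to 0.342.

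The gene that rose was EGLN3, an oxygen-sensing hydroxylase that marks the hypoxia-inducible factors for breakdown and is itself induced by them. It read 8.58 in UWKOS1, 7.55 in UWKOS3 and 6.73 in UWKOS7, against 6.23 in UWKOS2, 5.08 in UWKOS6 and 5.02 in UWKOS8. It rose by 2.18 (SE 0.54, limma adjusted p = 0.0491), and its dimmer probe set differed by 2.22. The call was lost without the filter (limma adjusted p = 0.0793), and UWKOS6 and UWKOS8 lay below 6.07, so the size is uncertain. As for CA9, UWKOS6 and UWKOS8 were the lowest lines. Without both the difference was 1.39 and did not pass, and with single lines left out EGLN3 passed without UWKOS7 only; the adjusted p ran from 0.024 to 0.552 over 16 alternatives. HIF1A, the oxygen-regulated subunit of the factor, stood at -0.50 (SE 0.15), short of the threshold (limma adjusted p = 0.0732). Of 9 tested genes of this list 6 were higher on average, with a median of 0.50, or 0.02 against UWKOS2 alone, without UWKOS6 and UWKOS8.

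In the remaining lists 0 genes passed with limma. Among 10 tested bicarbonate transporters and partners, 3 had an unadjusted p under 0.05. SLC26A2, a sulfate carrier, differed by 1.12 (SE 0.28, limma adjusted p = 0.0501), and the anion exchanger SLC4A2, which exports base, by -0.86 (SE 0.24, limma adjusted p = 0.0657). A dimmer probe set of SLC4A2 fell by 0.76 and passed (limma adjusted p = 0.0461). Among 4 tested sodium-proton exchanger genes and cofactors, 1 had an unadjusted p under 0.05: CHP1, a cofactor of the exchangers, differed by -0.58 (limma adjusted p = 0.0693). SLC9A3R1, the scaffold NHERF1, differed by 0.81 (limma adjusted p = 0.251).

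Among 8 tested genes of the monocarboxylate list, 1 had an unadjusted p under 0.05. LDHD, a D-lactate dehydrogenase, differed by -0.66 (limma adjusted p = 0.151) and the transporter SLC16A5 by 0.40 (limma adjusted p = 0.16). Lactate dehydrogenase A (LDHA), which makes lactate, was bright in every line, at 13.49 to 14.18, and differed by 0.29 (limma adjusted p = 0.382). BSG, the chaperone that brings SLC16A1 and SLC16A3 to the membrane, differed by -0.50 (limma adjusted p = 0.164). SLC16A10, a carrier of aromatic amino acids, lay below the filter and passed without it: it read 7.07, 6.44 and 5.98 in UWKOS1, UWKOS3 and UWKOS7, against 4.27, 3.83 and 4.27 in UWKOS2, UWKOS6 and UWKOS8, a difference of 2.38 (limma adjusted p = 0.02 without the filter). LDHA, BSG and SLC16A10 were chosen after their values were seen.

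Among 3 tested further carbonic anhydrases 0 had an unadjusted p under 0.05 on the brightest probe set. CA11, a relative without enzyme activity, differed by -1.38 (SE 0.64, limma adjusted p = 0.192) and read 8.19 in UWKOS1, 6.23 in UWKOS3 and 5.81 in UWKOS7, against 7.56, 8.21 and 8.60 in UWKOS2, UWKOS6 and UWKOS8. Without UWKOS1 it differed by -2.10 and passed (limma adjusted p = 0.0414). On a dimmer tested probe set CA11 differed by -0.76 without overlap of the groups (limma adjusted p = 0.0907). A further tested one differed by -0.11 with overlap (limma adjusted p = 0.705). Those below the filter differed by -0.54 and -0.40, without overlap. CA5B, a mitochondrial enzyme, differed by 0.49 (limma adjusted p = 0.435). Among 4 tested proton sensors 0 had an unadjusted p under 0.05, and the smallest p-values were those of the chloride channel PACC1 (0.38, limma adjusted p = 0.266) and ASIC3 (-0.22, limma adjusted p = 0.357). GPR65, a proton-sensing receptor of leukocytes and also chosen after its values were seen, stood apart in UWKOS7 and read 2.96 to 4.54 in the other 5 lines, with its mean below the filter, overlapping groups and a difference of 1.95 (SE 1.73).

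**Figure D5:**
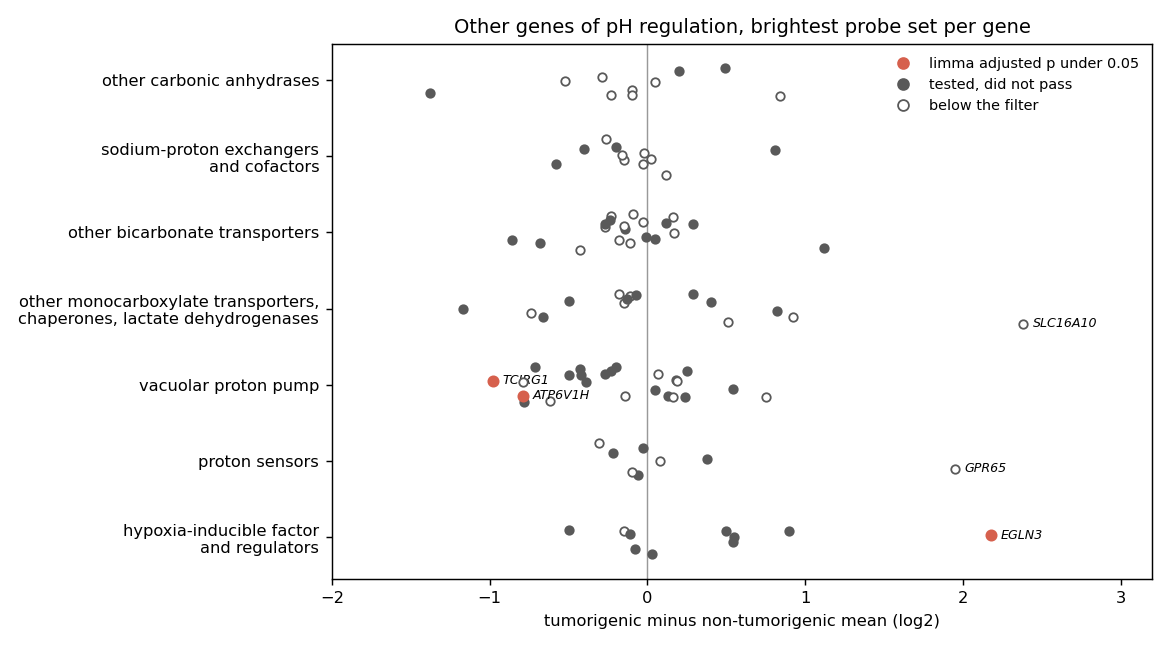
The horizontal axis gives the difference of the tumorigenic and non-tumorigenic means on the log2 scale for the brightest probe set of each of the 98 measured genes, in rows by list (red, limma adjusted p under 0.05; grey, tested and not past it; open, below the filter; vertical offsets within a row only separate points). TCIRG1 and ATP6V1H lie at -0.98 and -0.79 in the proton pump row and EGLN3 at 2.18 in the hypoxia row, while the other tested genes lie between -1.38 and 1.12.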

How the data were processed

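The authors deposited log2 values for 43035 probe sets. The submitters' processing notes name MAS5 and give it no version, and the summary and normalization behind the deposited log2 values are not given in the sources used here. The scale was read from the values, which run from 1.97 to 14.83, and they were used with no offset. The 111 control probe sets stayed out of the fit, and 0 columns were left out. Of 29254 probe sets with 1 symbol, 27680 took the current symbol of their gene identifier in RefSeq's table for UU_Cfam_GSD_1.0, which also served for gene order; no coordinates and no sequences were used.

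Groups were compared with limma 3.58.1 in R 4.3.3 (lmFit and eBayes, no covariate) over the 21462 probe sets at or above the median, and calls were made at a Benjamini-Hochberg adjusted p of 0.05. For lists, each gene stood by its brightest probe set. The members and lists were chosen with earlier results of these data known. Named were all members, list genes past the threshold or otherwise the 2 of smallest p, the 5 probe sets nearest to CA2, and 3 genes on each side of the cluster; single markers were named after their values were seen. Replicate numbers follow accession order and pair nothing.

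The fit was tested on simulated data for these 21462 probe sets with 200 changed, 50 of each size: it recovered 22% of changes of 1, 72% of 2, 96% of 4 and 98% of 6 on the log2 scale, with 7 false calls. The alternatives were other filters, normalizations, centrings, variance models, array weights, transcript-end covariates and lines left out.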

Additional observations from a re-analysis of the deposited data

How the results depend on the processing

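The count of member probe sets past the threshold, 1 of 10, stayed at 1 with robust eBayes, an intensity trend, 75th-percentile centring and quantile normalization. SLC4A7 and SLC16A1 joined CA2 after centring on hybridization controls and with array weights. The count was then 3 (15.4% of all tested probe sets passed) and 4 (18.1%). With limma it was 0 without the filter on dim probe sets, with an upper-quartile filter (2 tested), with a covariate of transcript-end ratio (that of GAPDH, or the mean of all pairs), and without UWKOS6 and UWKOS8; 6, 1, 2, 1 and 0 then had an unadjusted p under 0.05. It ran from 0 to 4 when each line was left out in turn. The share of all tested probe sets that passed also moved. It was 5.05% without the filter, 17.3% with the upper-quartile filter, and 0.126% and 0.116% with the GAPDH and the mean covariate. With a line left out the share ran from 0.242% (without UWKOS6) to 14.8% (without UWKOS7), beside 12.0% in the main fit. The count of pathway genes, 3 of 55, was 5 with an intensity trend (SLC26A2 and HIF1A added), 6 with array weights (SLC26A2, CHP1 and SLC4A2 added), 0 with either covariate and 0 without UWKOS6 and UWKOS8 (limma; 5, 4 and 3 at an unadjusted p under 0.05), and ran from 0 to 4 with each line left out. In that fit without both lines 9 of 21462 probe sets passed in all, where UWKOS2 stands alone and its spread is taken from the tumorigenic group. The transcript-end difference of -0.57 ran from -0.87 to -0.41 with a line left out. No paired analysis was possible because the labels give no shared replicate numbers. Precision is limited by having 3 arrays a group.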
